A study of Mus musculus with 15 samples.

Results

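The genes described here are 10 genes of leukocyte adhesion to the vessel wall: the selectins Sele and Selp, the sialomucins Glycam1, Cd34 and Podxl, the immunoglobulin-family ligands Vcam1, Icam1, Icam2 and Madcam1, and the chemokine receptor Ackr1, named Darc in older annotations. They were taken by name, and a probe was assigned to a member where its accession maps to that gene. They are 10 of 21173 genes with a symbol on the array and have 13 of its 55681 probes. Cd34, Vcam1 and Madcam1 have 2 probes each and the other 7 members have 1 each.

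A leukocyte leaves the blood in steps. The selectins of endothelium, E-selectin (Sele) and P-selectin (Selp), bind sialylated and fucosylated sugars and let the cell roll, after which VCAM-1, ICAM-1, ICAM-2 and MAdCAM-1 bind leukocyte integrins and arrest it. In lymph nodes sulphated sugars that let lymphocytes roll sit on sialomucins of high endothelial venules, among them GlyCAM-1, CD34 and podocalyxin, while adhesion in liver sinusoids is known to proceed largely without selectins.

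The series compared sorted endothelial cells of adult mouse liver on one-colour Agilent arrays, with 3 samples in each of 5 groups. EC-SP cells were set against EC-MP cells, both from animals 8 weeks old. The labels leave SP and MP unexplained, and they are taken here as side population, the cells that export a DNA dye, and main population. The other 3 groups were sorted by antibody into CD157+CD200+, CD157-CD200+ and CD157-CD200- cells, for which the labels give no age. CD157 is the ectoenzyme encoded by Bst1 and CD200 is a membrane glycoprotein encoded by Cd200. The labels name no treatment or genetic change. Strain, sex, the number of animals and the sorting gates are not given in the labels. The series' design text calls the 3 samples of a group independent without naming separate animals, so the p-values measure the spread between these samples.

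A value is the log2 of the processed spot signal relative to the 75th percentile of its array, called the log2 level here. It can be compared between groups for 1 gene, but not between genes. The arrays of EC-SP and EC-MP were read with other scanner software than those of the 3 antibody-sorted subsets, so groups were compared within a sort, and between the sorts only the differences were set against each other. A gene was called where limma gave an adjusted p under 0.05 (Benjamini-Hochberg, over the features of the fit), and ± after a difference is its standard error with 3 arrays per group. The arrays had 57.3% to 69.4% of their spots well above background, and their 75th percentiles lay between 157 and 298 intensity units. The sort markers of the subsets followed the labels: Bst1 was 5.74 ± 0.25 higher on the log2 scale in CD157+CD200+ than in CD157-CD200- cells (adjusted p = 5.3e-07), while Cd200 was well above background on 0 of 3 CD157-CD200- arrays. Bst1 was also 4.35 ± 0.24 higher in EC-SP than in EC-MP (adjusted p = 2.6e-05), whose labels do not name CD157. Pecam1 and Cdh5, which mark endothelium, were well above background on all 15 arrays.

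Markers of other cells moved with the groups as well. The summed level of 10 sinusoidal endothelial markers, in multiples of the 75th percentile, was 10.6 to 13.98 in EC-SP against 263 to 491 in EC-MP. In CD157+CD200+ cells it was 49.997 to 65.6 and in CD157-CD200+ cells 99.3 to 124, against 817 to 1083 in CD157-CD200- cells. Of 9 tested cholangiocyte markers, 6 were called higher in EC-SP (summed level 12.7 to 17.3 in EC-SP and 5.16 to 5.61 in EC-MP), with Cftr not well above background on any array. On all 3 EC-SP arrays 9 were well above background, and on all 3 EC-MP arrays 7. By limma 0 of 9 were called in CD157+CD200+ against CD157-CD200- cells (2 higher at an unadjusted p under 0.05) and 0 of 9 against CD157-CD200+ cells (6 higher at an unadjusted p under 0.05). Of 10 hepatocyte markers, 8 were called lower in CD157+CD200+ than in CD157-CD200- cells (summed level 9.76 to 12.7 in CD157+CD200+ and 25.8 to 42.0 in CD157-CD200- cells). Stellate cell and fibroblast markers went both ways. Of 9 tested, 1 was called higher and 2 lower in EC-SP than in EC-MP (3 and 2 under the replicate block). In CD157+CD200+ against CD157-CD200- cells 3 were called higher and 2 lower (6 and 2 under the block). Their summed level was 8.19 to 13.7 in EC-SP and 2.48 to 3.86 in EC-MP, and 17.0 to 26.0 in CD157+CD200+ and 4.11 to 4.80 in CD157-CD200- cells. Large-vessel and venous markers ran differently in the 2 sorts: EC-SP had 2 of 10 called higher and 5 lower than EC-MP (median difference -1.09, summed level 217 to 273 in EC-SP and 164 to 308 in EC-MP), and CD157+CD200+ cells had 7 higher and 0 lower than CD157-CD200- cells (0 lower at an unadjusted p under 0.05, median 3.99, summed level 516 to 554 in CD157+CD200+ and 58.2 to 81.7 in CD157-CD200- cells). Kupffer cell and macrophage markers had 3 of 8 called lower in EC-SP (5 with the replicate number as a block; summed level 27.0 to 31.2 in EC-SP and 25.9 to 35.8 in EC-MP) and 6 of 10 lower in CD157+CD200+ than in CD157-CD200- cells (28.0 to 31.5 in CD157+CD200+ and 40.8 to 54.7 in CD157-CD200- cells), with Timd4 at background on all 15 arrays. Of 9 hepatocyte markers tested in EC-SP against EC-MP, 3 were called higher and 2 lower (summed level 7.78 to 9.87 in EC-SP and 5.76 to 6.52 in EC-MP). The part of these lists in the differences given here was not tested. In RNA from sorted bulk cells, fewer cells that express a gene and less of its RNA per cell cannot be told apart.

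All 10 members were tested in both sorts, Glycam1 passing the filter on dim probes only through EC-SP in one and through CD157+CD200+ in the other. EC-SP against EC-MP gave 7 of the 10 members called higher and 0 lower, where 9.15% of all features were called higher, 7.39% lower and 16.5% either way. CD157+CD200+ against CD157-CD200- cells gave 6 called higher and 0 lower, where 8.12% of features were called higher, 7.11% lower and 15.2% either way. Between CD157+CD200+ and CD157-CD200+ cells, 3 were called higher and 0 lower, with 0.802% of features called higher, 0.245% lower and 1.05% either way. In CD157-CD200+ against CD157-CD200- cells, 5 were called higher and 1 lower, with 6.31% of features called higher, 5.52% lower and 11.8% either way. The median log2 difference over the 10 members was 1.32, 1.13, 0.63 and 0.70 in these 4 comparisons, and that over all features lay between -0.0071 and 0.020. The arrays of the 2 groups did not overlap for 9, 7, 6 and 6 members, against 34.9%, 29.3%, 14.6% and 25.4% of all features. At an unadjusted p under 0.05 these 4 comparisons had 0, 1, 0 and 1 of the 10 members lower. The 3 comparisons among the subsets share their arrays.

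**Figure D1:**
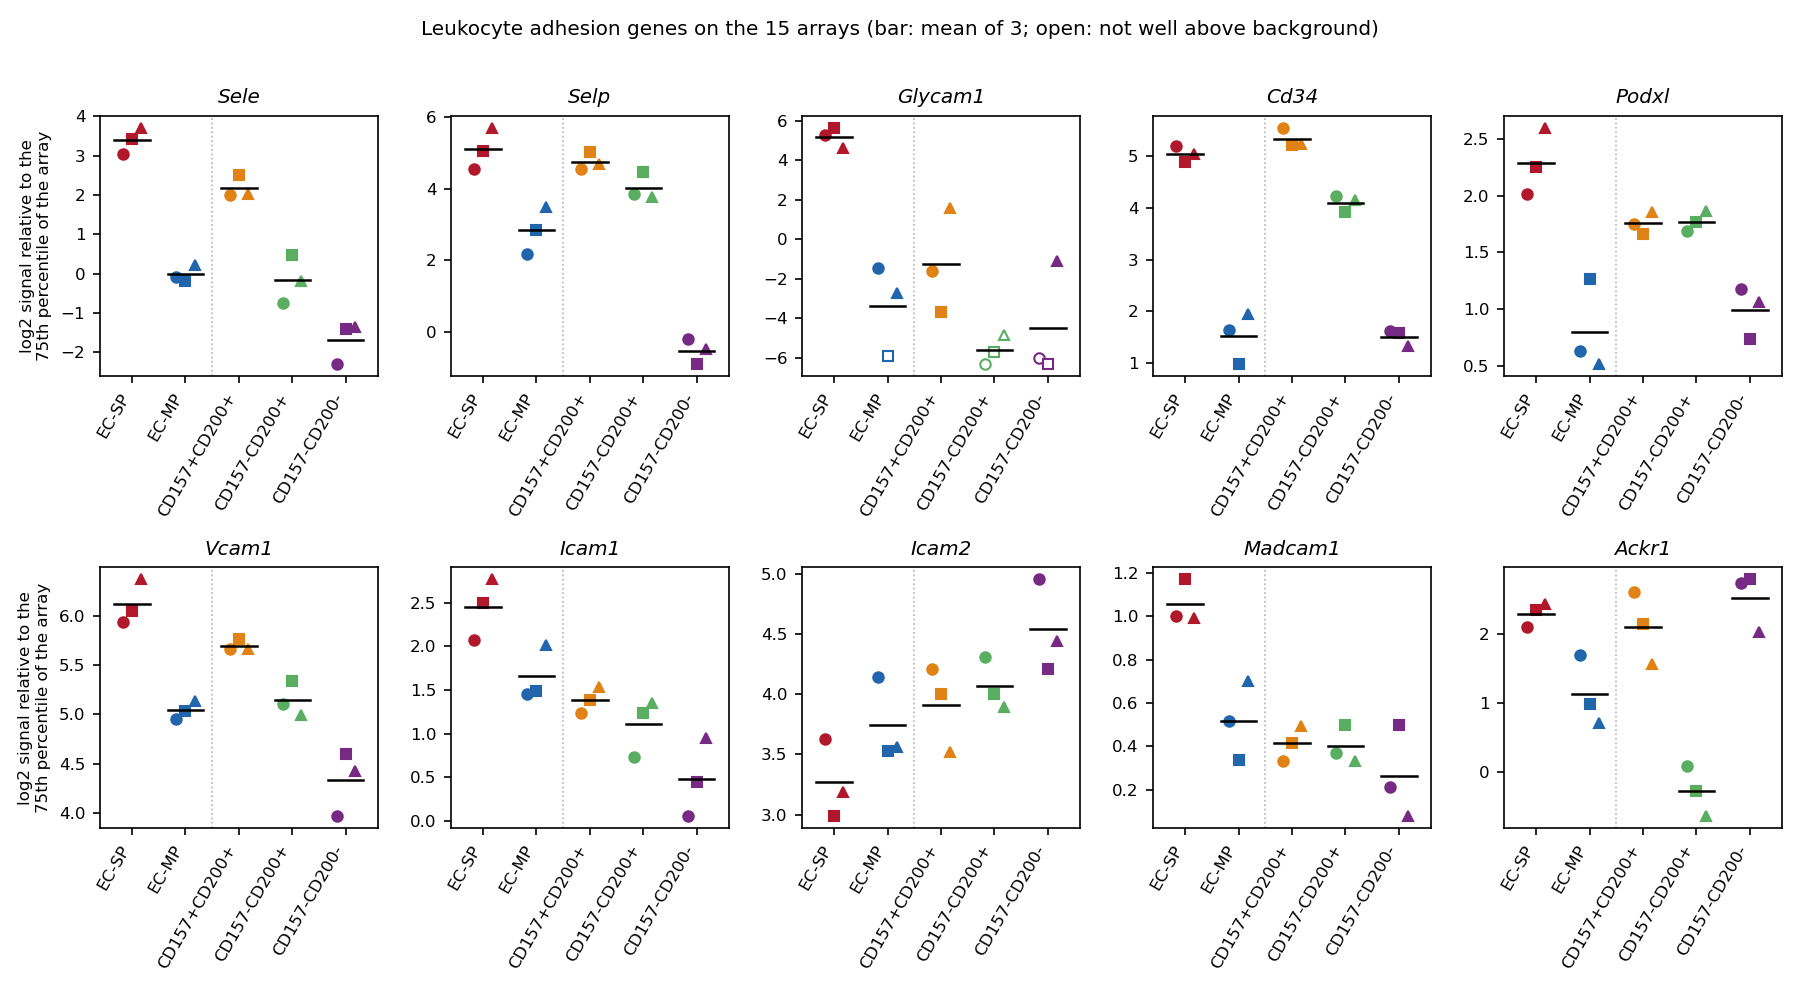
Log2 level of each of the 10 genes on each of the 15 arrays, with EC-SP and EC-MP left of the dotted line and the CD157 and CD200 subsets right of it. Circles, squares and triangles are the arrays numbered 1, 2 and 3, open symbols are not well above background, bars are means of 3, and each panel has its own vertical scale; Sele, Selp and Cd34 lie higher on every EC-SP array than on every EC-MP array, and Ackr1 lies lowest on the 3 CD157-CD200+ arrays.

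E-selectin and P-selectin RNA was higher in EC-SP than in EC-MP and higher in CD157+CD200+ than in CD157-CD200- cells. In the CD157-CD200+ subset Sele lay between the other subsets and differed from both, while Selp was 23.8-fold above CD157-CD200- cells and its difference from CD157+CD200+ cells did not pass the test. Sele and Selp both lie on mouse chromosome 1. Promoters of both selectins are shown because the genes lie on the same chromosome and both were called in the same direction. They are RefSeq sequence on GRCm38.p6, 250 bases before to 50 bases after the annotated start, 5′ to 3′ on the gene's strand. Capitals mark matches to the NF-kB pattern of GGG, any 5 bases and CC on either strand, searched because NF-kB is a known activator of Sele.
Sele, chr1:164047984-164048283 (+ strand): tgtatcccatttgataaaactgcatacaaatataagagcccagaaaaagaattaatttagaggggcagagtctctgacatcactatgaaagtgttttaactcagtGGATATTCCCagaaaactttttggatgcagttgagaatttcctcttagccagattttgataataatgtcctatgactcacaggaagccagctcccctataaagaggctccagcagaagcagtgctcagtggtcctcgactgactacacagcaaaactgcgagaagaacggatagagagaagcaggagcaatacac
Selp, chr1:164115014-164115313 (+ strand): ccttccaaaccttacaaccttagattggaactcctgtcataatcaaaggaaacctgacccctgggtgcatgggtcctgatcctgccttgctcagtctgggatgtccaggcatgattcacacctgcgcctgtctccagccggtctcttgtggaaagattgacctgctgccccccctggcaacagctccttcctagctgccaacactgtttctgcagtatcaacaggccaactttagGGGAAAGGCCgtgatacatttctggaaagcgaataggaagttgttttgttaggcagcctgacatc

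The Sele window holds 1 match, on the minus strand, which begins at position -145 relative to the start. The Selp window holds 1 match, which begins at position -15. Of 32851 promoter windows of this length, 16686 or 50.8% hold at least 1 match, so such a match is no mark of these genes and is a description only.

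Sele, the cytokine-inducible selectin of endothelium, had log2 levels of 3.05, 3.43 and 3.71 on the EC-SP arrays and -0.08, -0.18 and 0.22 on the EC-MP arrays. In the subsets it had 1.99, 2.51 and 2.03 in CD157+CD200+, -0.75, 0.48 and -0.19 in CD157-CD200+ and -2.31, -1.41 and -1.37 in CD157-CD200- cells. Within each sort no group's Sele values overlapped another's, with EC-SP above EC-MP and the subsets falling in steps. Sele was 10.6-fold higher in EC-SP than in EC-MP (log2 difference 3.41 ± 0.25, 95% interval 2.84 to 3.98, adjusted p = 7.6e-05). It was 14.6-fold higher in CD157+CD200+ than in CD157-CD200- cells (3.87 ± 0.35, adjusted p = 5.5e-05) and 5.03-fold higher than in CD157-CD200+ cells (2.33 ± 0.35, adjusted p = 0.0136). The step between CD157-CD200+ and CD157-CD200- cells was 2.91-fold (1.54 ± 0.35, adjusted p = 0.0189). The call between CD157+CD200+ and CD157-CD200+ cells was lost without CD157+CD200+ array 1 or 2 or CD157-CD200+ array 1 or 3 (adjusted p 0.0535 to 0.0696, difference 2.03 to 2.42). The call between CD157-CD200+ and CD157-CD200- cells was lost without CD157-CD200- array 1 or CD157-CD200+ array 2 or 3 (adjusted p 0.0548 to 0.0709, difference 1.22 to 1.56).

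Selp, the selectin stored in Weibel-Palade bodies of endothelium and in platelet granules, had log2 levels of 4.55, 5.06 and 5.71 in EC-SP and 2.17, 2.83 and 3.50 in EC-MP. The subsets had 4.54, 5.02 and 4.69 in CD157+CD200+, 3.86, 4.45 and 3.78 in CD157-CD200+ and -0.22, -0.91 and -0.49 in CD157-CD200- cells. The 3 CD157-CD200- arrays stood apart at the low end, whereas EC-MP still lay well above the 75th percentile. Selp was 4.83-fold higher in EC-SP than in EC-MP (2.27 ± 0.39, 95% interval 1.38 to 3.16, adjusted p = 0.0049). It was 39.1-fold higher in CD157+CD200+ than in CD157-CD200- cells (5.29 ± 0.26, interval 4.72 to 5.87, adjusted p = 1.0e-06) and 23.8-fold higher in CD157-CD200+ than in CD157-CD200- cells (4.57 ± 0.26, adjusted p = 3.3e-06). Between CD157+CD200+ and CD157-CD200+ cells the arrays did not overlap, but the difference of 0.72 ± 0.26 (interval 0.15 to 1.296) did not pass the test (adjusted p = 0.397). Such a lack of overlap between 3 and 3 arrays was seen for 14.6% of all features in that comparison.

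Platelet markers were set beside Selp, since platelets carry it too. In EC-SP against EC-MP limma called 0 of 6 platelet and megakaryocyte markers higher and 2 lower, and their summed level over 9 genes was 5.46 to 5.82 in EC-SP and 5.67 to 6.07 in EC-MP. Among the subsets 0 were called higher in CD157+CD200+ than in CD157-CD200- cells (0 at an unadjusted p under 0.05 in either sort) and 1, Pf4, was lower by 4.10 ± 0.71 (adjusted p = 0.0034), with summed levels of 5.02 to 5.78 in CD157+CD200+ and 6.19 to 7.37 in CD157-CD200- cells. Ppbp was not well above background on any EC-SP, EC-MP, CD157+CD200+ or CD157-CD200+ array. The part of platelet RNA in the level of Selp was not tested.

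The 2 sorts gave different Selp differences. The EC-SP minus EC-MP difference differed from the CD157+CD200+ minus CD157-CD200- difference by -3.02 ± 0.50 on the log2 scale and was the smaller (95% interval -4.09 to -1.95, adjusted p = 0.0024). Of the 10 members, Selp was the 1 called in this contrast, with 2.96% of all features called in its direction, 2.07% in the other and 5.04% either way. The 10 large-vessel and venous markers, which do not include Selp, were all called smaller in this contrast as well (median -4.62), and their part in the Selp difference was not tested. For Sele the same contrast was -0.46 ± 0.46 (interval -1.45 to 0.53, adjusted p = 0.772) and for Cd34 -0.30 ± 0.33 (interval -1.01 to 0.41, adjusted p = 0.812). Selp ran in the order EC-SP (5.11 ± 0.58, SD), CD157+CD200+ (4.75 ± 0.25), CD157-CD200+ (4.03 ± 0.37), EC-MP (2.83 ± 0.66) and CD157-CD200- (-0.54 ± 0.35), and EC-SP and CD157+CD200+ were the neighbours whose arrays overlapped. Levels across the 2 sorts come from arrays read with different scanner software and were not tested against each other.

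**Figure D2:**
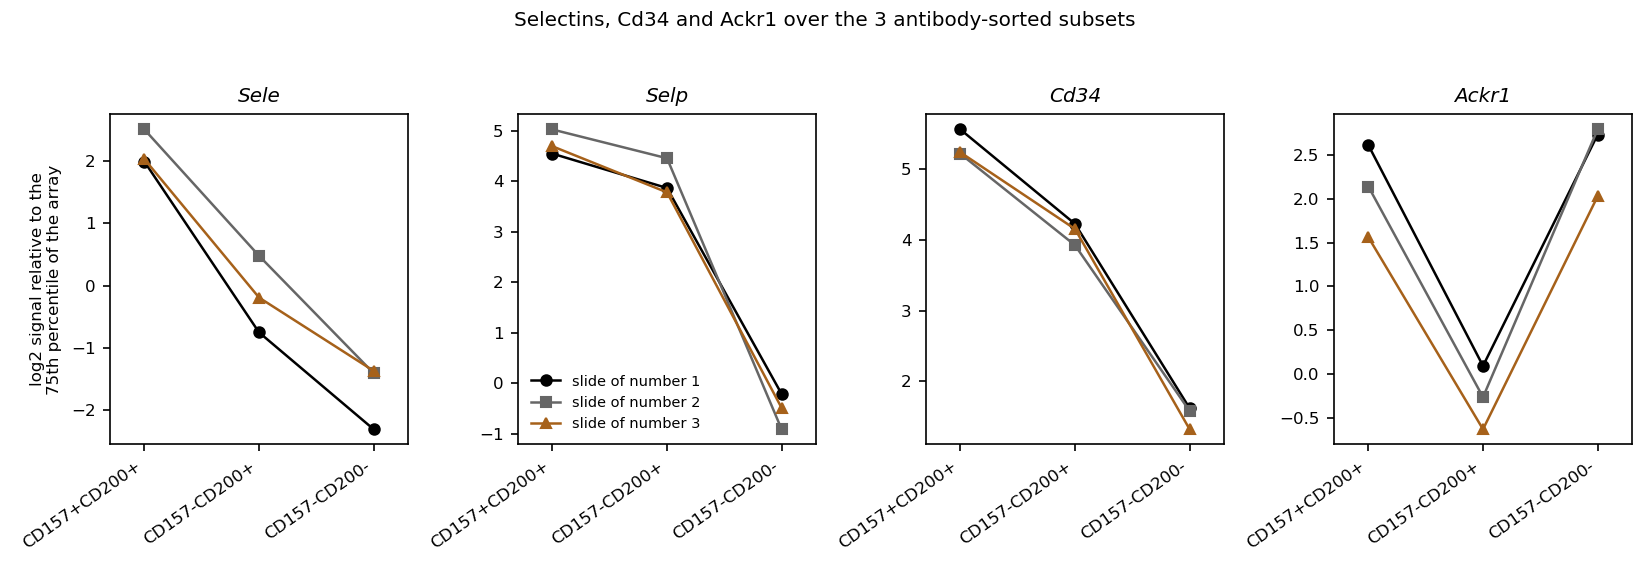
Log2 levels of Sele, Selp, Cd34 and Ackr1 in the CD157+CD200+, CD157-CD200+ and CD157-CD200- subsets, 1 line for each of the 3 slides, each of which held 1 array of every subset. Sele and Cd34 fall over both steps on all 3 slides, Selp falls mainly at the second step, and Ackr1 dips in CD157-CD200+ cells on every slide.

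Glycam1, a secreted sialomucin that carries sulphated sugars in high endothelial venules, was high on the 3 EC-SP arrays and dim nearly everywhere else. Its log2 levels were 5.30, 5.66 and 4.63 in EC-SP and -1.46, -5.93 and -2.71 in EC-MP, where array 2 was not well above background. CD157+CD200+ cells had -1.59, -3.69 and 1.57, CD157-CD200+ cells -6.31, -5.71 and -4.85 with 0 of 3 arrays well above background, and CD157-CD200- cells -6.03, -6.34 and -1.08 with 1 of 3. Thus the EC-SP arrays lay far above all 12 others, and the arrays of a subset scattered widely. The EC-SP minus EC-MP difference was 8.56 ± 0.93 (95% interval 6.45 to 10.68, adjusted p = 5.0e-04), or 378-fold with an interval of 87.3 to 1640. Since the probe entered the test only through EC-SP, where it is high, the call had that direction built in. The fold also rests on dim EC-MP arrays: it was 156-fold without array 2, which was at background, and 732-fold without array 1. The difference of 3.25 ± 1.52 (interval -0.16 to 6.66) between CD157+CD200+ and CD157-CD200- cells did not pass the test (adjusted p = 0.213). It did pass with the replicate number as a block (adjusted p = 0.0356) or without CD157-CD200- array 3 (4.95, adjusted p = 0.0288). CD157+CD200+ cells exceeded CD157-CD200+ cells in Glycam1 by at least 6.96-fold, taking the lowest signal called well above background as the limit, and the fitted difference did not pass the test (adjusted p = 0.376). That limit was 2.64-fold without CD157+CD200+ array 3 and 16.3-fold without CD157+CD200+ array 2. The contrast between the sorts was 5.32 ± 2.05 and did not pass the test (adjusted p = 0.189).

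Cd34, a transmembrane sialomucin of capillary and venous endothelium and of blood progenitors, was higher in EC-SP and stepped down over the 3 subsets. Its promoter is shown because it lies on chromosome 1 like those of the selectins and its levels followed Sele. It is RefSeq sequence on GRCm38.p6, written as above, with capitals on 2 matches to the same NF-kB pattern that begin at positions -30 and 1 relative to the start.
Cd34, chr1:194938571-194938870 (+ strand): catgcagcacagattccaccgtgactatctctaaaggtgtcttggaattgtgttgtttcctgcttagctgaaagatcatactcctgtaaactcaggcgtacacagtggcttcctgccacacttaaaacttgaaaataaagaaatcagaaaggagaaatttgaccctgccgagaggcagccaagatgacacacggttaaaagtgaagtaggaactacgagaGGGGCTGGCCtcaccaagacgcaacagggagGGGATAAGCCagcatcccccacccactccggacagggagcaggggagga

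Cd34 had log2 levels of 5.21, 4.89 and 5.05 in EC-SP and 1.64, 0.98 and 1.95 in EC-MP. In the subsets it had 5.56, 5.21 and 5.23 in CD157+CD200+, 4.23, 3.92 and 4.15 in CD157-CD200+ and 1.62, 1.58 and 1.33 in CD157-CD200- cells. No groups within a sort overlapped, and the EC-MP and CD157-CD200- arrays overlapped at the low end. Cd34 was 11.52-fold higher in EC-SP than in EC-MP (3.53 ± 0.28, adjusted p = 1.1e-04) and 14.2-fold higher in CD157+CD200+ than in CD157-CD200- cells (3.83 ± 0.18, adjusted p = 8.9e-07). CD157+CD200+ cells exceeded CD157-CD200+ cells 2.35-fold (1.24 ± 0.18, adjusted p = 0.0121), and these exceeded CD157-CD200- cells 6.02-fold (2.59 ± 0.18, adjusted p = 1.4e-05). The second Cd34 probe, fitted as a feature of its own, gave 4.22, 4.46, 1.59 and 2.87 in these 4 comparisons and was called in each. The call between CD157+CD200+ and CD157-CD200+ cells was lost without CD157+CD200+ array 1 or CD157-CD200+ array 1 or 2 (adjusted p 0.0511 to 0.0708).

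Podxl encodes podocalyxin, a sialomucin of the luminal endothelial surface. It had log2 levels of 2.02, 2.25 and 2.60 in EC-SP and 0.63, 1.27 and 0.52 in EC-MP. The subsets had 1.75, 1.67 and 1.85 in CD157+CD200+, 1.68, 1.77 and 1.87 in CD157-CD200+ and 1.17, 0.74 and 1.06 in CD157-CD200- cells. The CD200+ subsets overlapped each other and both lay above CD157-CD200- cells. Podxl was 2.80-fold higher in EC-SP than in EC-MP (1.48 ± 0.28, adjusted p = 0.0070). It was 1.70-fold higher in CD157+CD200+ than in CD157-CD200- cells (0.76 ± 0.17, adjusted p = 0.0150) and 1.72-fold higher in CD157-CD200+ than in CD157-CD200- cells (0.78 ± 0.17, adjusted p = 0.0164). The difference between the CD200+ subsets was -0.02 ± 0.17 (interval -0.41 to 0.38). Without CD157+CD200+ array 1 or 3 the first of the subset calls was lost (adjusted p 0.0537 to 0.0546), and without CD157-CD200+ array 2 or 3 the second was (adjusted p 0.0568 to 0.0673).

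**Figure D3:**
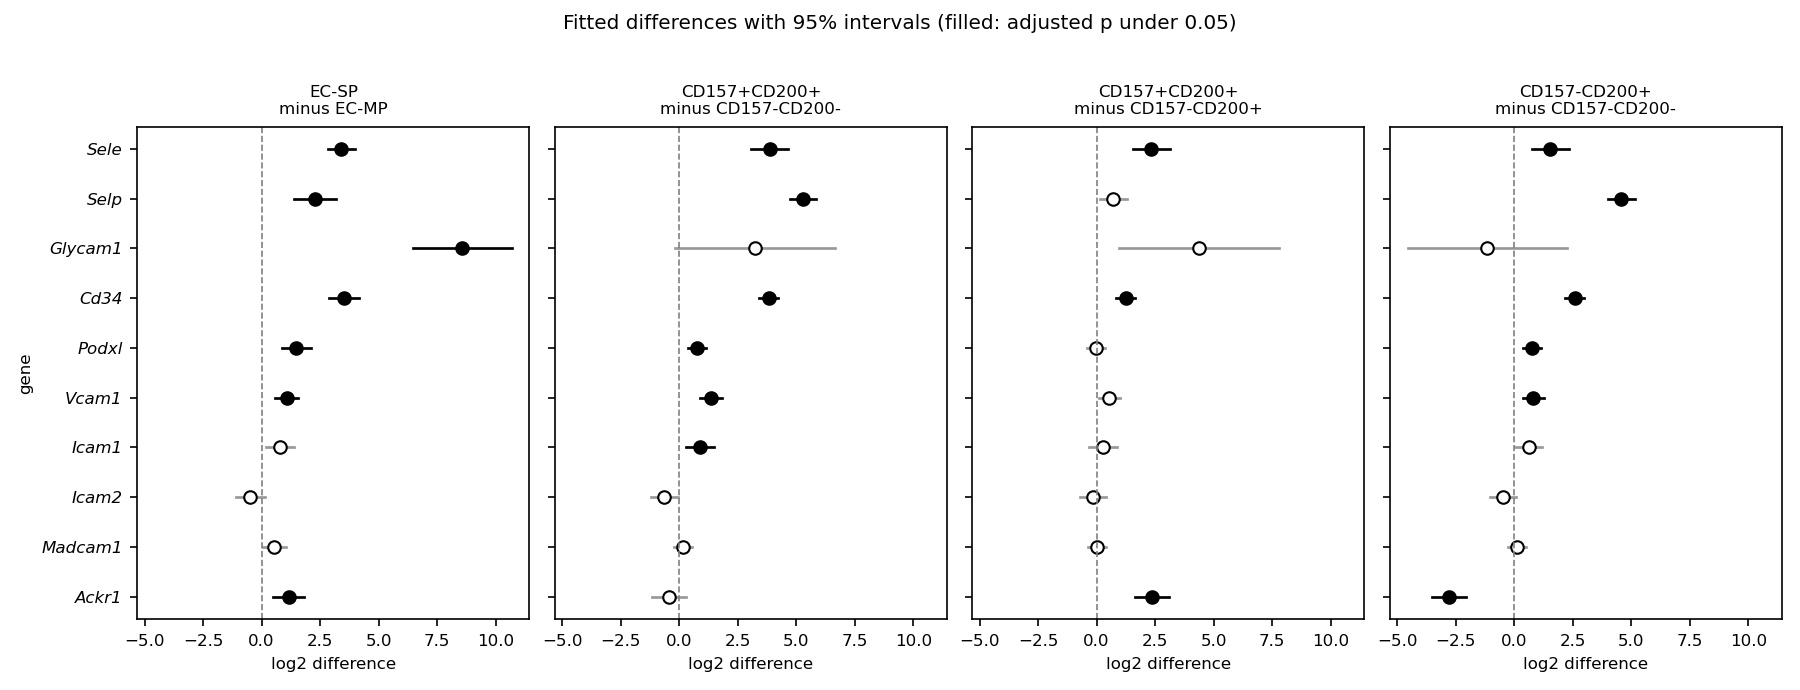
Fitted log2 difference of each of the 10 genes with its 95% interval in 4 comparisons, the group named first minus the second. Filled points passed an adjusted p of 0.05 over all features; Glycam1 has the widest intervals, Selp the largest difference among called members in both comparisons with CD157-CD200- cells, and Ackr1 is the 1 member called lower in any of the 4.

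Vcam1, the ligand of the integrin alpha4 beta1, had log2 levels of 5.93, 6.04 and 6.37 in EC-SP and 4.96, 5.04 and 5.14 in EC-MP. In the subsets it had 5.66, 5.76 and 5.66 in CD157+CD200+, 5.11, 5.34 and 4.996 in CD157-CD200+ and 3.97, 4.597 and 4.43 in CD157-CD200- cells. Its groups did not overlap within a sort. Vcam1 was 2.10-fold higher in EC-SP than in EC-MP (1.07 ± 0.22, adjusted p = 0.0112), although not past the threshold after quantile normalization (0.77, adjusted p = 0.0679). It was 2.57-fold higher in CD157+CD200+ than in CD157-CD200- cells (1.36 ± 0.20, adjusted p = 0.0012). Between CD157+CD200+ and CD157-CD200+ cells the difference of 0.55 ± 0.20 did not pass the test (adjusted p = 0.419). Arrays without overlap were seen there for 14.6% of all features. The difference of 0.81 ± 0.20 between CD157-CD200+ and CD157-CD200- cells passed the test (adjusted p = 0.0266) but was lost without CD157-CD200+ array 1, 2 or 3 or CD157-CD200- array 1 or 3 (adjusted p 0.0506 to 0.107). It was also lost after quantile normalization (adjusted p = 0.0565), without the filter on dim probes (0.0668) and with the mean of both probes (0.0573). It was not called on the second Vcam1 probe either (1.21, adjusted p = 0.143). That probe was called in EC-SP against EC-MP (1.15, adjusted p = 0.0082) and in CD157+CD200+ against CD157-CD200- cells (1.85, adjusted p = 0.0232).

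Icam1, an inducible ligand of the integrins LFA-1 and Mac-1, had log2 levels of 2.07, 2.50 and 2.77 in EC-SP and 1.45, 1.49 and 2.02 in EC-MP. Among the subsets it had 1.23, 1.38 and 1.54 in CD157+CD200+, 0.73, 1.24 and 1.35 in CD157-CD200+ and 0.06, 0.45 and 0.95 in CD157-CD200- cells. EC-SP lay above EC-MP and CD157+CD200+ above CD157-CD200- cells on every array, by small margins. The EC-SP minus EC-MP difference of 0.79 ± 0.27 did not pass the test (adjusted p = 0.0805) and passed it with the replicate number as a block (adjusted p = 0.0287) and with normexp background correction (0.73, adjusted p = 0.0492). CD157+CD200+ exceeded CD157-CD200- cells by 0.90 ± 0.26, or 1.86-fold (adjusted p = 0.0455). That call was lost without CD157+CD200+ array 1, 2 or 3, CD157-CD200+ array 2 or 3 or CD157-CD200- array 1 or 2 (adjusted p 0.0574 to 0.155, difference 0.68 to 0.97), with the authors' deposited series table (adjusted p = 0.0543) and without the filter on dim probes (adjusted p = 0.101). Between CD157-CD200+ and CD157-CD200- cells the difference of 0.62 ± 0.26 had an adjusted p of 0.194, and of 0.0208 with the block.

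Icam2, an LFA-1 ligand that resting endothelium carries constitutively, had lower means in EC-SP and CD157+CD200+ cells, without passing the test. It had log2 levels of 3.63, 2.99 and 3.19 in EC-SP and 4.14, 3.53 and 3.56 in EC-MP. The 3 subsets had 4.21, 4.004 and 3.52 in CD157+CD200+, 4.31, 3.998 and 3.89 in CD157-CD200+ and 4.95, 4.21 and 4.44 in CD157-CD200- cells. EC-SP overlapped EC-MP at the margin, and CD157+CD200+ cells only just missed CD157-CD200- cells. The differences were -0.48 ± 0.27 (adjusted p = 0.283) between EC-SP and EC-MP and -0.63 ± 0.26 (adjusted p = 0.150) between CD157+CD200+ and CD157-CD200- cells. The second of these passed the test with the replicate block (adjusted p = 0.0241). Array 1 was the highest of the 3 in each of the 5 groups.

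Madcam1, the addressin of mucosal venules that binds the integrin alpha4 beta7, had log2 levels of 1.00, 1.17 and 0.99 in EC-SP and 0.52, 0.33 and 0.70 in EC-MP. The subsets ranged from 0.33 to 0.49 in CD157+CD200+, from 0.33 to 0.50 in CD157-CD200+ and from 0.08 to 0.50 in CD157-CD200- cells. EC-SP stood above EC-MP on every array, whereas the subsets covered 1 common range. The EC-SP minus EC-MP difference of 0.54 ± 0.21 did not pass the test (adjusted p = 0.129), although it did when all 15 arrays shared 1 fit (adjusted p = 0.0434), and the difference of 0.15 ± 0.17 between CD157+CD200+ and CD157-CD200- cells did not either (adjusted p = 0.679). The probes of Madcam1 disagreed. The dimmer one was called higher in CD157+CD200+ than in CD157-CD200- cells (1.79, adjusted p = 0.0361), with 1 of 3 CD157-CD200- arrays well above background, and was not called in EC-SP against EC-MP (1.36, adjusted p = 0.0884). In the subsets this dimmer probe entered the test only through CD157+CD200+ cells, where it is higher.

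Ackr1, a receptor of venular endothelium and of red cells that binds chemokines without G-protein signalling, was the 1 member called lower in the middle subset than in both others. Its promoter is shown for contrast with the 3 above, and holds 0 matches to that pattern. Of the promoters not shown, Glycam1, called higher in EC-SP, also had 0 matches. Icam1 had 1, and Madcam1, not called on its brighter probe, had 5. Whether matches follow the calls was not tested. The absence of these letters says nothing of the factor.
Ackr1, chr1:173333454-173333753 (- strand): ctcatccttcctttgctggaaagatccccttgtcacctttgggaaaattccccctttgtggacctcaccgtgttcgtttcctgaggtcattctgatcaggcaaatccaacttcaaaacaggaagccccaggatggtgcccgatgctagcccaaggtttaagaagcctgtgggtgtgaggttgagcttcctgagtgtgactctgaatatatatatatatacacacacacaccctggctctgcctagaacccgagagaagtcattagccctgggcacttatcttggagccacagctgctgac

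Ackr1 had log2 levels of 2.10, 2.34 and 2.43 in EC-SP and 1.70, 0.99 and 0.72 in EC-MP. In the subsets it had 2.61, 2.14 and 1.56 in CD157+CD200+, 0.09, -0.27 and -0.63 in CD157-CD200+ and 2.74, 2.79 and 2.03 in CD157-CD200- cells. The 3 CD157-CD200+ arrays were the lowest of all 15, and the CD157+CD200+ and CD157-CD200- arrays overlapped. Ackr1 was 5.19-fold higher in CD157+CD200+ than in CD157-CD200+ cells (2.38 ± 0.32, 95% interval 1.65 to 3.10, adjusted p = 0.0086), by 2.20 to 2.52 on the 3 slides. It was 6.92-fold lower in CD157-CD200+ than in CD157-CD200- cells (difference -2.79 ± 0.32, interval -3.51 to -2.07, adjusted p = 3.3e-04). CD157+CD200+ cells differed from CD157-CD200- cells by -0.41 ± 0.32 (interval -1.14 to 0.31, adjusted p = 0.50). Both calls against CD157-CD200+ cells were made in 18 of 18 alternative settings.

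The EC-SP minus EC-MP difference of Ackr1 was 1.16 ± 0.29, or 2.23-fold (adjusted p = 0.0254), and was uneven over the slides at 0.40, 1.36 and 1.71. The call was lost without EC-SP array 1, 2 or 3 or EC-MP array 2 or 3 (adjusted p 0.0514 to 0.0872, difference 0.95 to 1.25), and without the filter on dim probes (adjusted p = 0.082). It exceeded the CD157+CD200+ minus CD157-CD200- difference by 1.57 ± 0.46, which did not pass the test (adjusted p = 0.0668) and passed it with the replicate block (adjusted p = 0.0165) or without EC-MP array 1, CD157+CD200+ array 1 or CD157-CD200- array 3 (1.82 to 1.85, adjusted p 0.0321 to 0.0479).

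Red cell RNA was set beside Ackr1, since red cells carry the protein. The summed level of 7 erythroid markers was 1.47 to 1.87 in CD157+CD200+, 1.65 to 1.82 in CD157-CD200+ and 12.8 to 21.8 in CD157-CD200- cells. Of 5 tested markers, 3 were called lower in CD157+CD200+ and in CD157-CD200+ than in CD157-CD200- cells, and limma called 0 between the CD200+ subsets (0 at an unadjusted p under 0.05). In EC-SP the sum was 1.45 to 2.14, against 3.21 to 5.16 in EC-MP. Hbb-b1 was not well above background on any CD157+CD200+ or CD157-CD200+ array. The part of red cell RNA in the level of Ackr1 was not tested in any group.

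Across the 15 arrays, with each sort centred on its own mean, the members resembled each other to different degrees. Sele correlated with Vcam1 at r = 0.97, with Cd34 at r = 0.94 and with Selp at r = 0.83. Ackr1 gave r = 0.19 with Sele and -0.31 with Selp. The points share slides and sorted groups, so these are descriptions. Of 14074 genes with a symbol, those most like Sele were Sik1 (r = 0.991), Abcb4 and Csrnp1 (both 0.983). Sik1, a salt-inducible kinase, differed by 1.79 between EC-SP and EC-MP and by 1.77 between CD157+CD200+ and CD157-CD200- cells. Those most like Selp were Clic5 (0.989), Apol10b (0.988) and Adgrg6 (0.986), and those most like Cd34 were Lef1 (0.992), Pcp4l1 (0.989) and Mcf2l (0.987). Lef1, a transcription factor of Wnt signalling, differed by 4.59 and 5.15 in the same 2 comparisons. For Glycam1 they were Ripk2 (0.938), Taf1d (0.934) and Chd1 (0.932), for Podxl Rbpms2 (0.9597), Uchl1 (0.941) and Serp2 (0.940), and for Vcam1 Nfatc2 (0.977), Pdlim4 (0.976) and Itgb4 (0.973). Icam1 was most like Klf4 (0.967), Pspc1 (0.959) and Slfn10-ps (0.948), Icam2 most like Psen2 (0.945), Bad (0.939) and Drap1 (0.927), and Madcam1 most like Fzd5 (0.902), Olfr329 (0.897) and Degs2 (0.891). Ackr1 was most like Sparc (0.911), a matricellular protein, and Endou (0.907) and Lama4 (0.891), and Sparc was called lower in CD157-CD200+ than in CD157-CD200- cells by 1.43 (difference -1.43, adjusted p = 0.0015).

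Enzymes that build selectin ligands were called in both directions. Counts of this and the other lists stand beside 9.15% of all features called higher and 7.39% lower in EC-SP against EC-MP. In CD157+CD200+ against CD157-CD200- cells those shares were 8.12% and 7.11%, and in CD157-CD200+ against CD157-CD200- cells 6.31% and 5.52%. EC-SP against EC-MP had 4 of 18 tested glycosylation genes called higher and 0 lower (3 lower at an unadjusted p under 0.05, and 2 called lower under the replicate block, Chst1 and Slc35c1), with a median difference of 0.23. They were Gcnt1, the core 2 branching enzyme (3.52 ± 0.44, adjusted p = 9.9e-04), the fucosyltransferase Fut7 (2.47 ± 0.36, adjusted p = 0.0020), B3gnt5 (2.00 ± 0.38) and the sialyltransferase St3gal6 (1.22 ± 0.24). Gcnt1, Fut7 and B3gnt5 were well above background on 2, 2 and 1 of 3 EC-MP arrays and so entered the test only through EC-SP, where they are high. Among the subsets 4 of 17 were higher and 3 lower in CD157+CD200+ than in CD157-CD200- cells, with a median of -0.07, or 5 and 4 under the replicate block. Gcnt1 was higher by 6.26 ± 0.53 (adjusted p = 3.4e-05), where 1 of 3 CD157-CD200- arrays was well above background. B3gnt5, also measured on 1 of 3 CD157-CD200- arrays, the sulphotransferase Chst1 and St3gal6 were higher as well, by 1.64, 1.29 and 0.58. Gcnt1 and B3gnt5 entered this test only through the CD200+ subsets, where they are high. The sulphotransferase Chst2 was lower (-2.55 ± 0.18, adjusted p = 9.7e-06), as were St3gal3 (-1.04) and the fucose transporter Slc35c1 (-0.69). Chst2 was nevertheless higher in CD157+CD200+ than in CD157-CD200+ cells (1.79 ± 0.18, adjusted p = 0.0020), so that it was lowest in the middle subset. Fut7 was not well above background on any CD157-CD200- array.

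**Figure D4:**
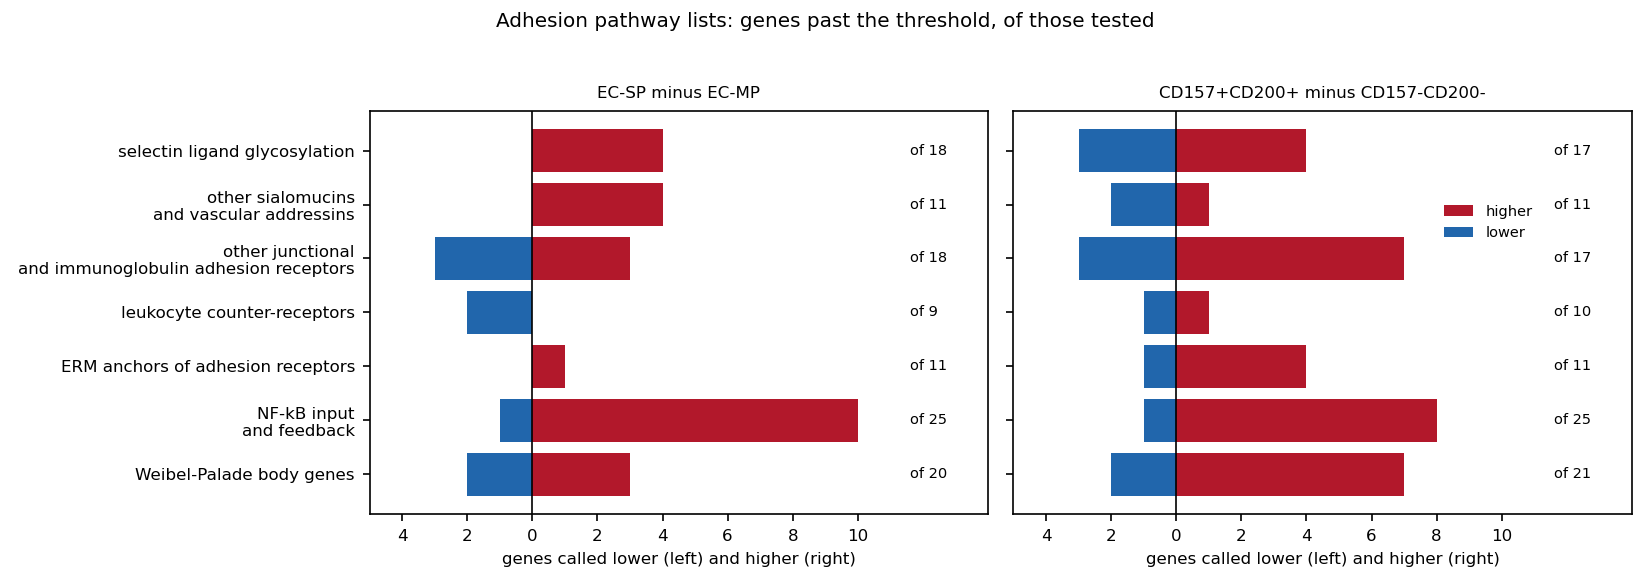
Number of genes of each adhesion-related list called higher (right) and lower (left) in EC-SP minus EC-MP and in CD157+CD200+ minus CD157-CD200-, with the number tested at the right edge. The NF-kB list is the longest and has the most genes called higher in both comparisons, 10 and 8 of 25. In the second comparison 7 of 17 junctional and immunoglobulin receptors, 4 of 11 cytoskeletal anchors and 7 of 21 Weibel-Palade body genes were called higher. Over all features 9.15% and 8.12% were called higher in the 2 comparisons.

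EC-SP had 4 of 11 other sialomucins and vascular addressins called higher than in EC-MP and 0 lower (1 at an unadjusted p under 0.05 and 1 under the replicate block, median 0.43). They were Muc1 (1.72 ± 0.26), Cd93 (1.52 ± 0.25), the heparan sulphate carrier Sdc1 (1.55 ± 0.38) and endomucin, Emcn (0.81 ± 0.21). Sdc1 was also higher in CD157+CD200+ than in CD157-CD200- cells, by 4.66 ± 0.19 (adjusted p = 4.7e-07), and Clec14a (-1.11 ± 0.16) and Cd164 (-0.75 ± 0.21) were lower, with 3 higher and 2 lower under the replicate block. Among 18 junctional and immunoglobulin receptors, EC-SP had 3 called higher (5 under the replicate block) and 3 lower (4 under the block). Jam3, a junctional ligand of Mac-1, was higher by 2.22 ± 0.21 (adjusted p = 2.6e-04), L1cam, measured on 1 of 3 EC-MP arrays, by 1.40 ± 0.31 and Aoc3 at least 1.96-fold, and the sinusoidal scavenger receptors Stab2 (-5.38 ± 0.35) and Stab1 (-1.77 ± 0.26) and Icam4 (-1.22 ± 0.33) were lower. Aoc3 was not well above background on any EC-MP array, and L1cam and Aoc3 entered this test only through EC-SP, where they are high. CD157+CD200+ cells had 7 of 17 higher and 3 lower than CD157-CD200- cells (median 0.32), or 8 and 4 under the replicate block. Alcam (3.51 ± 0.34), Jam3 (2.13 ± 0.21) and Pecam1 (1.09 ± 0.16) were among those higher, and Stab2 (-7.07 ± 0.19), Stab1 (-1.80 ± 0.27) and Cd47 (-1.21 ± 0.19) were those lower. The stabilins are also in the sinusoidal marker list.

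Leukocyte counter-receptors were read beside the ligands. In EC-SP against EC-MP limma called 0 of 9 higher (1 at an unadjusted p under 0.05) and 2 lower, Itgb7 (-1.22 ± 0.25) and Itga9 (-1.05 ± 0.28). In CD157+CD200+ against CD157-CD200- cells Itgb7 was higher (1.06 ± 0.25) and Itga9 lower (-2.45 ± 0.26), of 10 tested, with 3 higher and 1 lower under the replicate block. Of 3 tested lymphocyte markers limma called 0 in either comparison, with 0 and 1 at an unadjusted p under 0.05, and the 1 was called lower under the replicate block. Of 2 tested neutrophil markers, S100a9 was called higher in CD157+CD200+ than in CD157-CD200- cells (1.81 ± 0.45, adjusted p = 0.0235) and under the replicate block also in EC-SP than in EC-MP. Macrophage markers were called lower in both comparisons, as given above. The cytoskeletal anchors of adhesion receptors had 1 of 11 higher in EC-SP, ezrin (Ezr, 1.02 ± 0.23), and 2 under the replicate block. The count of 1 is near the share of all features called higher there, 9.15%. In CD157+CD200+ against CD157-CD200- cells 4 of 11 were higher, Ezr (1.64 ± 0.17), Filip1l (1.58 ± 0.21), Actn1 (2.03 ± 0.27) and Rdx (1.301 ± 0.28), and Slc9a3r1 was lower (-1.34 ± 0.21), with 5 higher and 1 lower under the replicate block.

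Sele, Vcam1 and Icam1 are textbook targets of NF-kB, and 25 genes of NF-kB input and feedback were tested. In EC-SP against EC-MP 10 were called higher and 1 lower (median 0.44), or 11 and 2 under the replicate block. The TNF receptor Tnfrsf1b was higher by 3.84 ± 0.27 (adjusted p = 5.6e-05), the feedback inhibitor Tnfaip3 by 2.65 ± 0.25 (adjusted p = 2.7e-04) and Rel by 1.71 ± 0.26, and the alarmin Il33 was lower (-1.26 ± 0.22, adjusted p = 0.0052). CD157+CD200+ cells had 8 higher and 1 lower than CD157-CD200- cells (median 0.30), or 11 and 5 under the replicate block. Tnfrsf1b was higher by 5.79 ± 0.39 (adjusted p = 7.7e-06) and Tnfaip2 by 2.59 ± 0.26, Il33 was higher there (1.73 ± 0.19, adjusted p = 1.7e-04), and Tnf itself was lower (-2.76 ± 0.41, adjusted p = 0.0014). Between CD157+CD200+ and CD157-CD200+ cells Tnfaip3 (1.53 ± 0.22, adjusted p = 0.012) and Irf1 (1.13 ± 0.18, adjusted p = 0.016) were called, both higher, and 5 genes were under the block. In CD157-CD200+ against CD157-CD200- cells 5 were higher and 2 lower (median -0.08), or 5 and 7 under the block.

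Weibel-Palade bodies, the granules from which endothelium releases P-selectin and von Willebrand factor, gave 3 of 20 genes higher and 2 lower in EC-SP (median 0.00032). The lower ones were 4 under the replicate block. The higher ones were Il6 (6.58 ± 0.42, with 2 of 3 EC-MP arrays well above background, adjusted p = 4.1e-05), the plasminogen activator Plat (4.71 ± 0.22, adjusted p = 1.6e-05) and the granule membrane protein Cd63 (1.08 ± 0.21), and Angpt2 (-1.79 ± 0.27) and Rab27a (-1.78 ± 0.47) were lower. Il6 entered this test only through EC-SP, where it is high. Vwf differed by 0.21 ± 0.35 between EC-SP and EC-MP (adjusted p = 0.77). In CD157+CD200+ against CD157-CD200- cells 7 of 21 were higher and 2 lower (5 lower under the replicate block). Vwf was higher there by 7.86 ± 0.27 (adjusted p = 1.9e-07), Edn1 by 6.24 ± 0.31 and Il6 by 7.56 ± 0.25, and Myrip at least 72.2-fold. Myrip was not well above background on any CD157-CD200- array and entered the test only through the CD200+ subsets, where it is high. Of the 22 list genes 17 were well above background on all 3 CD157-CD200- arrays. Other tested genes than Myrip thus also entered only through the CD200+ subsets, which favours a call of higher against CD157-CD200- cells. Angpt2 (-2.88 ± 0.24) and Rab3b (-3.22 ± 0.26) were lower. In CD157-CD200+ against CD157-CD200- cells 6 were higher and 2 lower, or 9 and 5 under the replicate block. Of the list genes named here, L1cam, Icam4, Cd47, Slc35c1, Tnf, Rab27a and Rab3b were named after their values were seen.

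High endothelial venule genes outside the 10 members were called higher in part. In EC-SP against EC-MP 3 of 5 tested were called higher and 0 lower (1 lower at an unadjusted p under 0.05 and under the replicate block), namely Ch25h (4.65), Enpp2 (5.19) and Fut7 (2.47). Of the 5, 3 were well above background on all 3 EC-MP arrays, Chst4 among them. Fut7 and 1 of Ch25h and Enpp2 were not, and entered that test only through EC-SP, where they are high. The summed level of the 5 ran the other way, at 90.0 to 111 in EC-SP and 148 to 154 in EC-MP. That sum is linear, so bright genes set it, and Fut7 and Chst4 (mean log2 levels -1.17 and -2.39 in EC-SP) add little. In CD157+CD200+ against CD157-CD200- cells 2 of 4 were higher, Ch25h (4.91, adjusted p = 2.3e-05) and Enpp2 (4.19, adjusted p = 7.9e-04). Of the 5 genes, 4 were well above background on all 3 CD157+CD200+ arrays and 1 on all 3 CD157-CD200- arrays. That 1 gene was neither Ch25h nor Enpp2, so both entered the test only through the CD200+ subsets, where they are high. Both calls thus had that direction built in. Summed levels were 187 to 222 in CD157+CD200+ and 165 to 215 in CD157-CD200- cells. Ch25h was also called higher in CD157+CD200+ than in CD157-CD200+ cells (3.10, adjusted p = 0.0065). Chst4, the sulphotransferase of lymph node venules, differed by 0.41 between EC-SP and EC-MP (adjusted p = 0.399) and by -0.20 between CD157+CD200+ and CD157-CD200- cells (adjusted p = 0.739).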

How the data were processed

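The labels' protocols name RNeasy for RNA extraction, the Ovation Pico WTA System V2 for amplification and Cy3 for the labelled cDNA. Per the file headers the scanner files hold processed, linear spot intensity, from Agilent Feature Extraction 10.10.1.1 for EC-SP and EC-MP and 11.5.1.1 for the subsets. The authors' deposited series table held the same intensity times 1 constant per array (5.46 to 10.1, column medians 218 to 335). No source used here gives the basis of that constant, and the table served as an alternative.

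Control spots were dropped, 110 to 213 of 59305 spots per array marked as outliers were set to missing, and 0 were saturated. Spots of a probe were averaged after the log2 processed signal had been set relative to the 75th percentile of its array. Tested probes were well above background on every array of 1 or more groups in the fit, and a gene was read from its probe with the highest mean over the 15 arrays, which left 23971 and 23701 features. limma 3.58.1 in R 4.3.3 (lmFit, eBayes) fitted the 6 EC-SP and EC-MP arrays, the 9 subset arrays, and all 15 for the contrast between sorts (25062 features), with two-sided tests and Benjamini-Hochberg adjustment. The fit was tested on simulated data. Where no array of a group measured a gene, its fold is a lower bound against the dimmest measured signal of each array, or the gene's own if higher. The number of arrays limits the precision.

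The members and lists were chosen with earlier results of these data known. Genes named beside the members are the 3 best correlated with each and up to 4 per list and comparison by lowest adjusted p, with exceptions named as such. Same-numbered arrays share a slide within a sort and correlated at r = 0.27 to 0.33 (3 pairs) and 0.27 to 0.63 (9 pairs) after group means were removed, against -0.20 to -0.08 (6 pairs) and -0.49 to 0.03 (18 pairs) for other pairs. Paired samples and a shared slide cannot be told apart by these values. The main fits did not use the replicate number, which was fitted as a block among the alternatives. Others changed background correction (normexp with an offset of 50, on the median signal because the files have no mean signal column), normalization, filter, probe choice and the arrays used. Promoters and gene names come from RefSeq tables, with promoters for 7 of 10 members.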

Additional observations from a re-analysis of the deposited data

Results flagged for a closer look

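Selp stood out by a test of the difference between the sorts. Its EC-SP minus EC-MP difference of 2.27 ± 0.39 on the log2 scale and its CD157+CD200+ minus CD157-CD200- difference of 5.29 ± 0.26 differed by -3.02 ± 0.50 (limma over 15 arrays, adjusted p = 0.0024). The contrast was called in 23 of 23 alternative settings, with values between -3.35 and -2.48 and adjusted p between 8.7e-04 and 0.0086. All 10 large-vessel and venous markers were called smaller in the same contrast (median -4.62), and their part in the Selp difference was not tested.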

How the results depend on the processing

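Over the 10 members and 5 comparisons, 856 alternative values kept direction and side of the threshold, 39 lost a call, 15 gained one and 20 changed sign. Calls of Sele, Selp, Glycam1, Cd34 and Podxl in EC-SP against EC-MP, of Sele, Selp, Cd34 and Vcam1 in CD157+CD200+ against CD157-CD200- cells, of Selp and Cd34 in CD157-CD200+ against CD157-CD200- cells, and both Ackr1 calls against CD157-CD200+ cells held in every alternative in which they were tested. Glycam1 in EC-SP against EC-MP had 14 alternatives, since it was not tested where probes had to be above background on every array. The direction of its call was built in by the filter on dim probes, as given above. Leaving out 1 array gave 6 to 7 called members in EC-SP against EC-MP (7 with all arrays), 4 to 7 in CD157+CD200+ against CD157-CD200- cells (6), 1 to 3 in CD157+CD200+ against CD157-CD200+ cells (3), 3 to 6 in CD157-CD200+ against CD157-CD200- cells (6) and 1 to 2 in the contrast between the sorts (1). The replicate block gave 8, 8, 3, 7 and 2 in the same order, and beside the calls named with the results it changed no other call. Slide and scan coincide with the replicate number within each sort, so no separate slide block was run. In the contrast between the sorts, normexp gave 3 called members, adding Glycam1 (5.54, adjusted p = 5.6e-04) and Ackr1 (1.39, adjusted p = 0.0316), and keeping only probes above background on every array gave 2 (Ackr1, adjusted p = 0.0439) and dropped Glycam1.

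None of the values that changed sign was called in either setting. In CD157+CD200+ against CD157-CD200+ cells, leaving out 1 array gave -0.0636 to 0.0317 for Podxl, -0.303 to 0.043 for Icam2 and -0.0249 to 0.0639 for Madcam1, and Podxl was 0.0016 with normexp and Madcam1 -0.021 with the authors' table. Glycam1 in CD157-CD200+ against CD157-CD200- cells ranged from -2.07 to 0.56. In the contrast between the sorts leaving out 1 array gave -0.339 to 0.108 for Icam1 and -0.0591 to 0.349 for Icam2. There Sele was 0.31 and Icam1 0.023 with normexp, Icam2 was -0.0030 with the authors' table, and Madcam1 was -0.022 as the mean of its probes and -0.43 on its other probe. The fit of single other probes was chosen after seeing the data. The cause of these changes was not tested.

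Counts over all features moved by over 1.5 times for EC-SP against EC-MP without a filter on dim probes (2284, against 3966), with the replicate block in CD157+CD200+ against CD157-CD200- cells (6923, against 3609), in CD157-CD200+ against CD157-CD200- cells (5280, against 2805) and in the contrast (3190, against 1263). In CD157+CD200+ against CD157-CD200+ cells they were 725 with the block, 376 with normexp and 159 with probes above background on every array, against 248, and leaving out 1 array gave 101 to 257 (0.415% to 1.08% of features), with the lowest 4 counts without array 1 or 2 of either group. Leaving out 1 array moved no other comparison's count by over 1.5 times. The authors' table moved the median of all features to -0.17 in EC-SP against EC-MP, with 1649 called higher and 2495 lower in place of 2194 and 1772, and to -0.15 in the contrast, with 384 and 938 in place of 520 and 743. The 75th percentile over probes above background everywhere gave 1989 and 1998 in EC-SP against EC-MP, 2169 and 1505 in CD157+CD200+ against CD157-CD200- cells in place of 1925 and 1684, and 426 and 884 in the contrast, where the median of all features was -0.11.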
